A study of Mus musculus with 62 samples.

Results

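The 10 genes described here, all of the angiogenic and endothelial program, were followed through the histone maps of mouse skeletal muscle: the ligands Vegfa, Vegfb and Angpt1, the receptors Kdr, Flt1 and Tek, the junction and adhesion genes Pecam1 and Cdh5, and the transcription factors Sox17 and Erg. A region was counted for a gene where the gene name that the authors' annotation gave it, that of the nearest transcription start site (TSS), was 1 of these 10. By this rule 1069 of 601616 regions in 20 lists belonged to them (0.178%): 603 regions in 8 lists for acetylated histone 3 lysine 27 (H3K27ac), a mark of active promoters and enhancers, 458 regions in 8 lists for dimethylated histone 3 lysine 4 (H3K4me2), which marks promoters and enhancers more broadly, and 8 regions in the 4 lists of differential H3K27ac.

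The chromatin came from muscles of male C57BL/6 mice, and each of 8 groups held 2 chromatin immunoprecipitation sequencing (ChIP-seq) libraries per mark. Wild-type sedentary mice gave 4 muscles: the extensor digitorum longus (EDL), the quadriceps femoris (Quad), both mainly glycolytic, the soleus (Sol), and the diaphragm (Dia). A separate quadriceps set compared wild-type mice given running wheels (Ex), taken hours after their last run, with wild-type sedentary controls (Sed). A further quadriceps set compared sedentary mice with genotype PGC1a Tg(+) (mTg) with sedentary wild-type littermates (Wt). The mTg transgene expresses Pgc1a, a transcriptional coactivator of oxidative metabolism, from the muscle creatine kinase promoter, which is active in muscle fibers. Each quadriceps sample was 1 muscle of 1 animal, whereas the EDL, Sol and Dia samples were pools of several animals. All libraries were made from whole muscle. A weaker mark on an endothelial gene can therefore mean fewer endothelial cells or less of the mark in each of them, and these cannot be told apart.

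Vegfa and Vegfb encode secreted vascular endothelial growth factors, and in muscle the fibers themselves are a well-known source of Vegfa. Kdr (VEGF receptor 2) transmits most of the Vegfa signal in endothelial cells, whereas Flt1 (VEGF receptor 1) binds Vegfa and Vegfb and holds much of the ligand away from Kdr. Angpt1, made mainly by cells around the vessel, activates Tek, the Tie2 receptor of endothelium, and stabilizes vessels. Pecam1 and Cdh5 (VE-cadherin) join endothelial cells to each other, and Sox17 and Erg are transcription factors of arterial and of general endothelial identity.

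The sequences that follow are accessible sites, that is ATAC-seq peaks of control quadriceps, inside H3K27ac regions of these genes. They were chosen because they lie in the regions that differed with exercise or with the transgene, or because they are the highest-scoring accessible site outside exons near the gene. Each is 195 bases of the + strand of mm10, 5′ to 3′, in lower case, with matches in capitals. The motifs searched on both strands were ETS (AGGAAG or CGGAAG), a hypoxia response core (ACGTG), a nuclear receptor half-site (AGGTCA), MEF2 by name, AP-1 (TGANTCA), forkhead (TGTTTAC), SOX (AACAAT) and SP (GGGCGG). None of these letter patterns contains another, although neighbouring matches can share bases.
Vegfa, intergenic, 114 kb downstream of the TSS, chr17:45911411-45911605 (matches ETS, SP): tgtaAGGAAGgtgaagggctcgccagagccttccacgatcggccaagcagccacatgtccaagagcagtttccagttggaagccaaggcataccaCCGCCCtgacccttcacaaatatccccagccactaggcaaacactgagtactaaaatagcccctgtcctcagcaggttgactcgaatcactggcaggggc
Erg, intron, 14.1 kb upstream of the nearest TSS, chr16:95472956-95473150 (no match): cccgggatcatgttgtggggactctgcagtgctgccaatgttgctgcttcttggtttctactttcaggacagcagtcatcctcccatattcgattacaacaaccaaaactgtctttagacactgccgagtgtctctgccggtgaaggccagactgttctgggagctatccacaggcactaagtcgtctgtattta
Angpt1, first intron, 99.1 kb downstream of the TSS, chr15:42577612-42577806 (AP-1): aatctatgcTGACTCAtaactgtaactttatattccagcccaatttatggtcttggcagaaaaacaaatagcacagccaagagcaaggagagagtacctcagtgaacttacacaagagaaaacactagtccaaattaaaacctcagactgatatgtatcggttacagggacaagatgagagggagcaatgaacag
Angpt1, intergenic, 160.1 kb upstream of the TSS, chr15:42836774-42836968 (SOX): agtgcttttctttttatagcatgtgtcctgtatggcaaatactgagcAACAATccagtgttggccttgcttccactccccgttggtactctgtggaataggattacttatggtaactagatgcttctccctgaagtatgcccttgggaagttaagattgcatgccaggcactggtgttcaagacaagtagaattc
Flt1, intron, chr5:147657935-147658129 (4 ETS): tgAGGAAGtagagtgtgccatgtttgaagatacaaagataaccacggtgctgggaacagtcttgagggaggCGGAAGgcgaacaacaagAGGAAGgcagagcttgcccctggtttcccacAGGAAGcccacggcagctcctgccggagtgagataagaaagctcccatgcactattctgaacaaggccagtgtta
Tek, first intron, chr4:94746608-94746802 (ETS): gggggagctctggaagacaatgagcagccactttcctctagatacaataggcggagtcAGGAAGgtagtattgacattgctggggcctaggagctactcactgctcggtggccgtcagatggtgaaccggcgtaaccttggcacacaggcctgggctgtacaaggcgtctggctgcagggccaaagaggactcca
Pecam1, intron, chr11:106674760-106674954 (no match): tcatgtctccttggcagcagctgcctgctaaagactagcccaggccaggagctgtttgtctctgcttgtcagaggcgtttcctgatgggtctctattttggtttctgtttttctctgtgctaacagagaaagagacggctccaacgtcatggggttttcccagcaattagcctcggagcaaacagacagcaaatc
Sox17, intergenic, 46.8 kb upstream of the TSS, chr1:4544150-4544344 (hypoxia core, nuclear receptor half-site, ETS, forkhead): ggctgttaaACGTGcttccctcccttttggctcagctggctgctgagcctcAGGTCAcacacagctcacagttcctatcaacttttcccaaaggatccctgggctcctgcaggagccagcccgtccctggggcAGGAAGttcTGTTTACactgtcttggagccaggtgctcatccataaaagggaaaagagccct

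The ETS pattern, bound by factors of the family that includes Erg, occurred in 38.1% of all 44911 ATAC peaks, the SP pattern in 21.6%, the nuclear receptor half-site in 16%, the hypoxia core in 13.1%, AP-1 in 10.2%, SOX in 6.16%, MEF2 in 4.69% and forkhead in 2.89%. A match is therefore common for most of them, and is only a description of the letters. In all groups but Ex, the start sites of Vegfa and Vegfb ranked above those of the other genes in H3K27ac per kb, so the 250 bases upstream of each are given as well, from the RefSeq promoter table on GRCm38.p6, minus strand, with the same marking. Of the 10 genes, 6 matched that table (Vegfa, Vegfb, Kdr, Flt1, Tek and Erg, with 9 promoters); Angpt1, Pecam1, Cdh5 and Sox17 had no entry.
Vegfa upstream, chr17:46032378-46032627 (2 SP): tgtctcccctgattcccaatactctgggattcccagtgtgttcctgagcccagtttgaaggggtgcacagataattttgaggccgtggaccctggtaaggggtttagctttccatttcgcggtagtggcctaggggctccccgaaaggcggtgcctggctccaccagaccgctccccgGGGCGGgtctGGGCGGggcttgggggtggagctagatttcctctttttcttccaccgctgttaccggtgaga
Vegfb upstream, chr19:6987652-6987901 (2 nuclear receptor half-sites, 4 SP): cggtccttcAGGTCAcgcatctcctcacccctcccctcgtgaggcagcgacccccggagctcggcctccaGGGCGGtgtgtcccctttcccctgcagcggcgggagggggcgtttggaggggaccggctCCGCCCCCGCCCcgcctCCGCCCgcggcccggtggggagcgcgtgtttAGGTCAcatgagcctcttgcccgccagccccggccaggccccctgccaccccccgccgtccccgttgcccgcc
SP was found in 35.7% of the 32851 promoters of the table and the half-site in 16.3%.

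Library depth, in units of 1000000 tags, was 11.7 to 24.2 for H3K27ac, 6.41 to 22.7 for H3K4me2 and 7.72 to 22.9 for the inputs. The H3K4me2 library of mTg replicate 1 was the shallowest, and the mTg H3K4me2 list was the shortest, with 27527 regions against 33138 to 46944 in the other groups. The H3K27ac lists held 33106 (Dia) to 49010 (Wt) regions. All lists held regions at fiber genes, with 8 of 11 fiber markers present in EDL and 11 of 11 in Sol and Dia. At Ppargc1a, the gene the transgene encodes, 8 H3K27ac regions were shared by mTg and Wt, none over 2-fold apart (-0.72 to 0.61 on the log2 scale); the transgene sits elsewhere, so its own locus does not check the labels.

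H3K27ac at the 10 genes lay mostly away from promoters. Of their 603 peaks, 350 were intragenic, 247 intergenic and 6 promoter peaks, where a promoter peak has its centre between 1 kb upstream and 100 bp downstream of a TSS. Since start-site peaks were broad and centred inside the gene, 34 peaks (5.64%) had their centre within 1 kb of a TSS, the median distance was 45.3 kb and 124 peaks (20.6%) lay beyond 100 kb, up to 380 kb from Angpt1. The 10 genes held 0.168% (Ex) to 0.229% (mTg) of all peaks of a list. Their peaks were not strong ones as a group: ranked by log2 level per kb within the own list, their median percentile was 31.7 (Sed) to 41.1 (Quad). Between 28.9% (mTg) and 59.7% (EDL) of them overlapped an H3K4me2 peak, against 44.9% to 71.5% of all H3K27ac peaks.

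More peaks were named for Kdr and Flt1, 123 and 119 over the 8 lists, than for any other of the 10 genes. Kdr had 10 (Wt) to 22 (EDL) H3K27ac peaks and Flt1 13 (Sed) to 18 (Quad), whereas Vegfb had 1 peak in each of the 8 groups and Cdh5 had 2 to 4. Vegfa had 7 peaks in Ex and 17 in Wt. Angpt1 had the most uneven spread, with 2 in EDL and Ex, 3 or 4 in Quad, Sol, Dia and Sed, and then 12 in Wt and 11 in mTg. Tek had 4 (Ex) to 8 (Quad), Pecam1 4 (EDL) to 11 (Quad), Sox17 3 (Ex) to 9 (Sol) and Erg 5 (Dia and Ex) to 10 (Quad and Wt). A count follows how long its list was and how broad regions were split, and each list was called once over both replicates, so the counts have no replicate error.

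**Figure D1:**
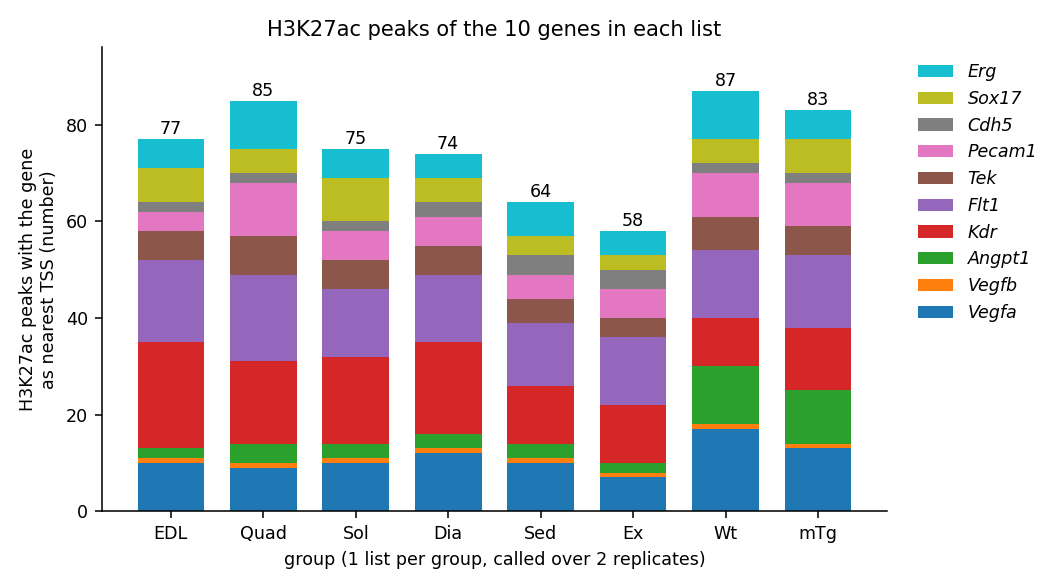
Number of H3K27ac peaks of each of the 10 genes (stacked colours, vertical axis) in the peak list of each of the 8 groups (horizontal axis), with the total above each bar. Totals run from 58 in Ex to 87 in Wt, and the Angpt1 segment is widest in Wt and mTg with 12 and 11 peaks.

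Merging overlapping peaks over the 8 lists gave 117 H3K27ac regions. Of these, 24 were present in all 8 groups, 52 in 2 to 7 groups and 41 in a single group, namely 10 in Wt, 8 in Quad, 7 each in Sol and mTg, 3 in Dia and 2 each in EDL, Ex and Sed. The regions found everywhere included 5 each of Kdr and Flt1, 3 of Vegfa, 2 each of Tek, Pecam1, Sox17 and Erg, and 1 each of Vegfb, Angpt1 and Cdh5. Regions of a single group were most frequent at Angpt1 (11 of 19) and Erg (8 of 13). The more groups a region was found in, the higher it tended to rank: the median percentile was 8.31 for regions of 1 group, 12.2 for 2, 30.4 for 5, 26.8 for 6 and 49.6 for 8. A weak region passes the peak threshold in fewer lists, so this order is in part built into the peak calling and is only a description.

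**Figure D2:**
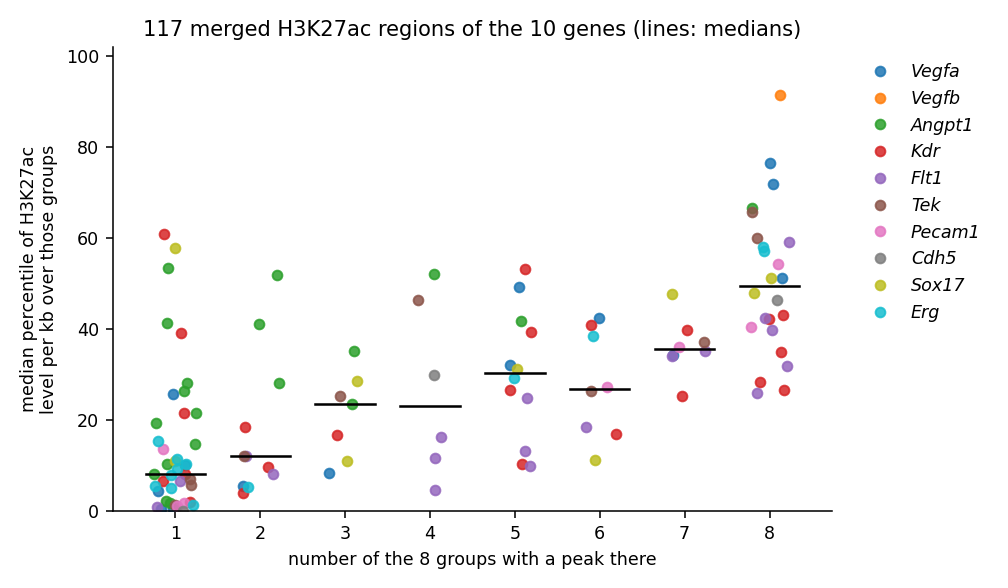
Each point is 1 of the 117 merged H3K27ac regions, coloured by gene, placed by the number of groups with a peak there (horizontal axis) and by its median percentile of log2 level per kb over those groups (vertical axis), with black lines for medians. The medians run from 8.31 for 1 group to 49.6 for all 8 groups, and the Vegfb start site, at 91.6, is the highest point.

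Vegfa, the main endothelial growth factor, had a start-site region near the top of its list in all groups but Ex. Its H3K27ac level per kb ranked at percentile 99.3 and 99.0 in the 2 EDL libraries, 98.8 and 96.2 in Quad, 99.1 and 97.1 in Sol, 99.1 and 99.0 in Dia, 99.1 and 97.8 in Sed, 99.3 and 99.2 in Wt, and 98.9 and 99.3 in mTg. Ex stood apart with 83.2 and 75.2, below all 14 other libraries. In log2 level per kb the Ex libraries had 7.04 and 6.48 and the Sed libraries 8.02 and 8.08.

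The Vegfb start site was also high. Its percentiles were 92.9 and 88.6 in EDL, 90.6 and 81.0 in Quad, 92.7 and 91.0 in Sol, 92.7 and 95.2 in Dia, 83.6 and 83.5 in Sed, 92.4 and 88.3 in Ex, 95.4 and 97.0 in Wt and 99.2 and 98.6 in mTg. Both mTg libraries ranked above every other library, and both Ex libraries above both Sed libraries. For Angpt1 no Quad H3K27ac peak came within 500 bp of the start site, and the nearest, centred 1.5 kb inside the gene, ranked at 65.2 and 46.3. The start-site peak ranked at 55.1 and 45.6 in EDL, 60.5 and 73.0 in Sol, 63.4 and 68.7 in Dia, 61.5 and 68.9 in Sed, 81.9 and 86.7 in Ex, 71.6 and 78.8 in Wt and 84.0 and 83.8 in mTg. Ex lay above Sed and mTg above Wt without overlap of the replicates.

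The endothelial receptors and junction genes ranked in the middle of their lists. Kdr start-site percentiles ran from 39.9 (Wt) to 71.5 (Dia) over the 16 libraries and those of Flt1 from 51.2 (Ex) to 79.3 (Quad). Tek, the Angpt1 receptor, had 47.4 and 63.0 in Sed, 79.4 and 88.5 in Ex, 81.7 and 74.4 in Wt and 52.4 and 52.3 in mTg. Per kb, Ex was thus higher than Sed and mTg lower than Wt. The Tek peak was 4.039 kb wide in mTg and 1.944 kb in Wt, so the mTg and Wt order depends on the division by width. Pecam1 ranked from 26.1 to 73.4, and its lowest value was Ex replicate 2, whose partner had 53.6. Cdh5 was highest per kb in Sol with 74.4 and 82.8, above the other 14 libraries at 35.6 to 65.6. Its Sol peak was also the narrowest, at 4.019 kb against 4.381 to 7.237 kb. Sox17 was likewise highest in Sol, with 71.9 and 70.3 against at most 64.1 elsewhere. Erg stayed between 55.5 (Wt) and 78.3 (Quad). Replicates of a group differed by up to 27.5 percentile points at Pecam1, where the group levels spanned 40.5 (Ex) to 71.3 (Quad), and by up to 21.9 at Tek, so neighbouring groups in these orders were not separated beyond the replicate spread.

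**Figure D3:**
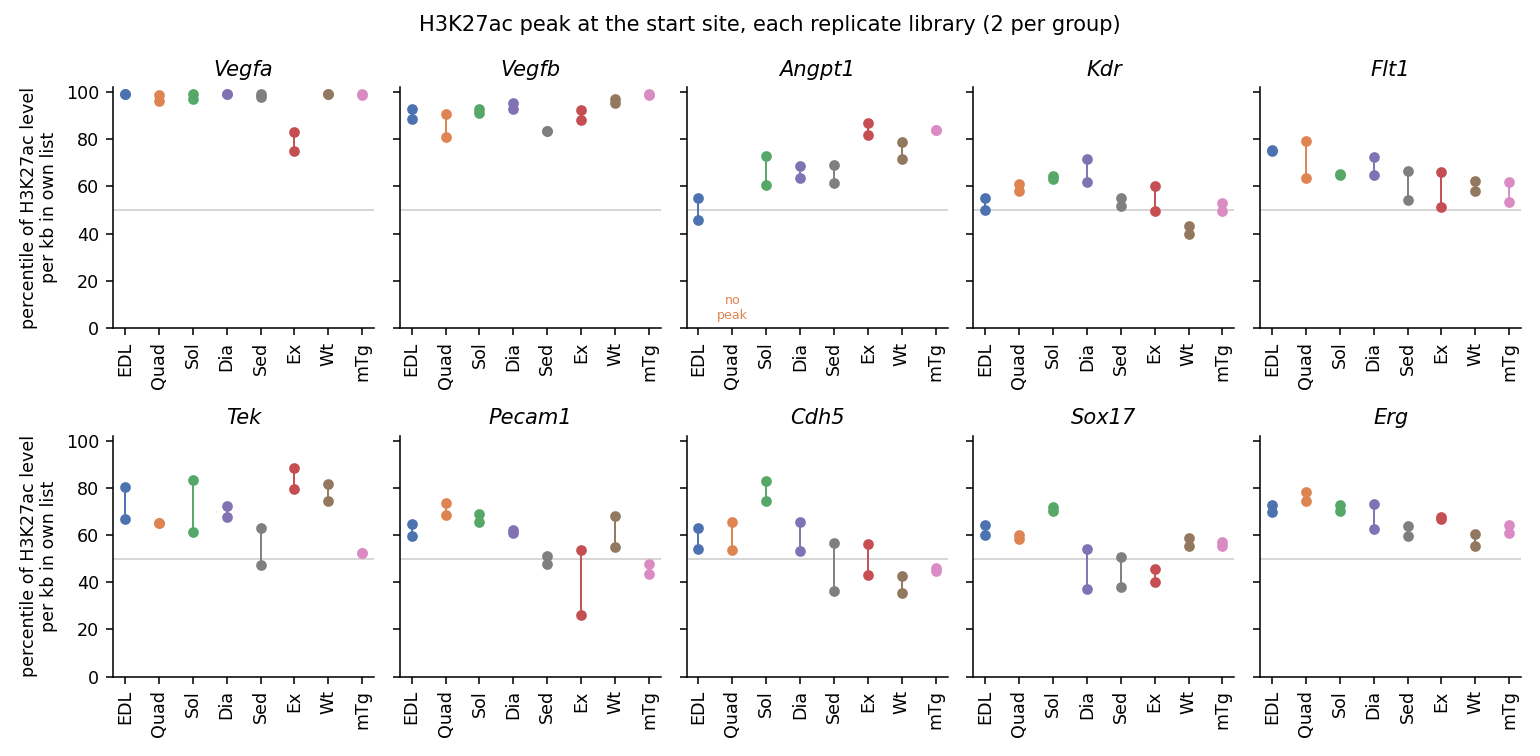
Percentile of the H3K27ac level per kb within its own list (vertical axis) of the peak at the start site of each gene (panels), with 1 point per replicate library and a line joining the 2 replicates of a group. Vegfa sits above 96 in all libraries but those of Ex at 83.2 and 75.2, Vegfb is highest in mTg, and Angpt1 has no peak within 500 bp in Quad.

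Several genes had a stronger region away from the start site. A Pecam1 region in an intron, about 40 kb downstream of the TSS (chr11:106672927-106676179 in Wt), ranked at 96.4 in Wt, 92.7 in Sol, 90.0 in Quad, 88.7 in Ex, 81.7 in mTg and 69.9 in Sed. In Dia and EDL it was part of wider regions that ranked at 72.1 and 65.6. The site printed above for Pecam1 lies in it. An Erg region in an intron (chr16:95401079-95404408 in Wt) ranked at 81.4 in Quad, 80.4 in Wt and 79.1 in mTg, but at 24.1 in Dia and 32.5 in Ex. Vegfa had a downstream intergenic cluster that held the accessible site printed first. Its region 114 kb from the TSS ranked at 92.2 and 87.1 in the Quad libraries, 91.4 and 90.7 in Wt, 89.1 and 75.8 in Sed, and 51.9 and 48.3 in Ex. In each of these groups the Vegfa start site ranked higher.

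H3K4me2 covered most of the same start sites, with a different order. At Vegfa, Vegfb and Angpt1 it ranked at percentile 80 to 94.5, 82.9 to 98.5 and 62.4 to 94.5 over the 16 libraries, and the lowest Angpt1 values, 62.4 and 69.3, were those of mTg, the group with the shallowest library. Erg has 2 start sites, and the stronger peak near either was taken. It ranked low, at 8.0 to 44.7, and was missing in mTg. In EDL, Sol and Sed it lay at the upstream start site, and in Quad, Dia, Ex and Wt at the other. Pecam1 had none in Sed, Ex and mTg, and Cdh5 none in Ex and mTg. In Quad, Sol, Dia and Wt the peak on the Cdh5 start site carried the name of the neighbouring gene Gm29682, and so is not among the 458.

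To compare muscles, regions of 2 lists that covered each other by at least 50% were matched, and the log2 level per kb of each library was centred on its median over all matched regions. A region was called apart where the group means differed over 2-fold and the replicates did not overlap. The lists were normalized separately, so no test was run, and all 3 muscle comparisons share the Quad libraries. Between Sol, an oxidative muscle, and Quad, 0 of 40 matched regions of the 10 genes were apart, with 3.59% of all 19468 matched regions apart. In these 40 regions 31 were higher in Sol, with a median difference of 0.25 on the log2 scale (-0.34 to 0.94), where 54.9% of all matched regions were higher in Sol.

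The largest differences in favour of Sol were at Flt1, Kdr and Vegfa. The Flt1 region 7.3 kb upstream of the TSS had -1.60 and -1.25 in the Sol libraries and -2.76 and -1.98 in the Quad libraries, a difference of 0.94. This region was weak, with a median percentile of 4.7 over the 4 groups that had it and at most 12.3. A Kdr region 55.6 kb downstream had -0.41 and -0.25 in Sol against -1.07 and -1.45 in Quad (0.93), and a Vegfa region 139.3 kb downstream had -0.52 and -0.52 against -1.26 and -1.54 (0.88). The Cdh5 start site had 0.27 and 0.51 in Sol against -0.58 and -0.18 in Quad (0.77). Its region was 4.019 kb wide in Sol and 6.143 kb in Quad, so the difference over the whole region is smaller. The 4 Sox17 regions were higher in Sol by 0.39 to 0.75, among them the one holding the printed Sox17 site, with -0.12 and -0.09 against -0.94 and -0.42. In all these regions the Sol and Quad replicates did not overlap, and none reached 2-fold per kb. Over the whole region, 3 of the 40 were apart (Vegfa, Flt1 and Kdr), against 10.9% of all matched regions. The Vegfa start site differed by 0.07 and that of Pecam1 by 0.02, with overlapping replicates. Without Sol replicate 1 or Quad replicate 1, 2 of the 40 regions passed 2-fold, and without Quad replicate 2, 1 did. Of all matched regions, 4.09%, 4.74% and 4.36% were then apart.

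Marker regions of other cells were read beside these values, and none of the mural cell, fibroblast or leukocyte regions was apart between Sol and Quad. Of the fiber regions 1 of 16 was apart (Myh1) and of the satellite cell regions 1 of 5 (Chrdl2), both lower in Sol. The satellite cell regions were higher in Sol in 3 cases (median 0.49, -1.37 to 0.57). Regions of mural cell markers were higher in Sol in 10 of 11 cases (median 0.34, -0.22 to 0.98), the 2 leukocyte regions by 0.40 and 0.63, and those of muscle fiber markers had a median of -0.32, while 3 of 9 fibroblast regions were higher (median -0.11). Between Sed and Wt, both sedentary wild-type quadriceps, mural cell regions had a median of 0.43 (4 of 5 higher in Sed), leukocyte regions of -0.38 and fibroblast regions of -0.06. Their part in the result was not tested. EDL differed little: 1 of 49 matched regions was apart, against 0.652% of all 22536, and the median difference was 0.03. That region lay 9.5 kb downstream of the Vegfa TSS (chr17:46015148 is its EDL start), with -0.68 and -1.12 in EDL against -1.43 and -2.39 in Quad. It was no longer called without EDL replicate 1 or Quad replicate 2. For Dia, 0 of 35 regions were apart, against 4.2% of all 18826, with a median of 0.02 and a range of -0.62 (Erg, 86.6 kb downstream) to 0.71 (Flt1, 32.4 kb upstream).

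Between Ex and Sed the regions furthest apart were those of Vegfa. Of 33 matched regions, 3 were apart, all of Vegfa and all lower in Ex, against 2.92% of all 18430 matched regions. The region 121.6 kb downstream had -0.74 and -1.10 in Ex and 0.32 and 0.15 in Sed, a 2.22-fold difference (-1.15 on the log2 scale). The region 113.9 kb downstream had -0.47 and -0.48 against 0.79 and 0.27 (-1.01), and the start site 0.57 and 0.19 against 1.55 and 1.5 (-1.15). In each of the 3 both Ex libraries lay below both Sed libraries. Other Vegfa regions differed less per kb, with -0.39 at 131.9 kb and 0.20 at 139.0 kb.

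Region width bears on these values. The Ex start-site region was 10990 bp wide and the Sed region 8258 bp, since the Ex call also took in part of an upstream stretch that was a separate peak in Sed. Taken over the whole region and not per kb, the Vegfa differences were -0.72 at the start site, -0.75 at 121.6 kb, -1.23 at 113.9 kb and -1.21 at 131.9 kb, and the Erg region 56.5 kb downstream of its TSS had -1.27 (-0.58 per kb). The number apart was 5 without Ex replicate 1, 1 without Ex replicate 2 and 6 without Sed replicate 2. Of all matched regions, 7.28%, 1.87% and 7.09% were then apart.

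Tek and Angpt1 went the other way without reaching 2-fold. The Tek start site had 0.40 and 0.67 in Ex against -0.50 and -0.16 in Sed (0.87), and the intronic region 7.7 kb downstream, which holds the printed Tek site, had -0.07 and 0.38 against -0.87 and -0.43 (0.80). The Angpt1 start site had 0.51 and 0.60 against -0.14 and 0.03 (0.61). Both start-site regions were narrower in Ex than in Sed, at 3.74 against 5.154 kb (Tek) and 2.032 against 2.54 kb (Angpt1). Their differences over the whole region are therefore smaller than those per kb. Vegfb differed by 0.28 per kb and by -0.30 over the whole region, so its direction depends on the width. The start sites of Kdr, Flt1, Cdh5, Sox17 and Erg differed by 0.03, -0.05, 0.07, -0.02 and 0.12, and that of Pecam1 by -0.21.

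No marker region of other cells or of fibers was apart between Ex and Sed. Fibroblast marker regions were higher in Ex in 11 of 11 cases (median 0.48), leukocyte marker regions in 5 of 5 (median 0.49), mural cell regions in 5 of 7 (median 0.23), and muscle fiber regions in 1 of 9 (median -0.41), beside Sed and Wt medians of -0.06, -0.38, 0.43 and -0.18. Their part in the differences at Vegfa, Tek and Angpt1 was not tested.

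**Figure D4:**
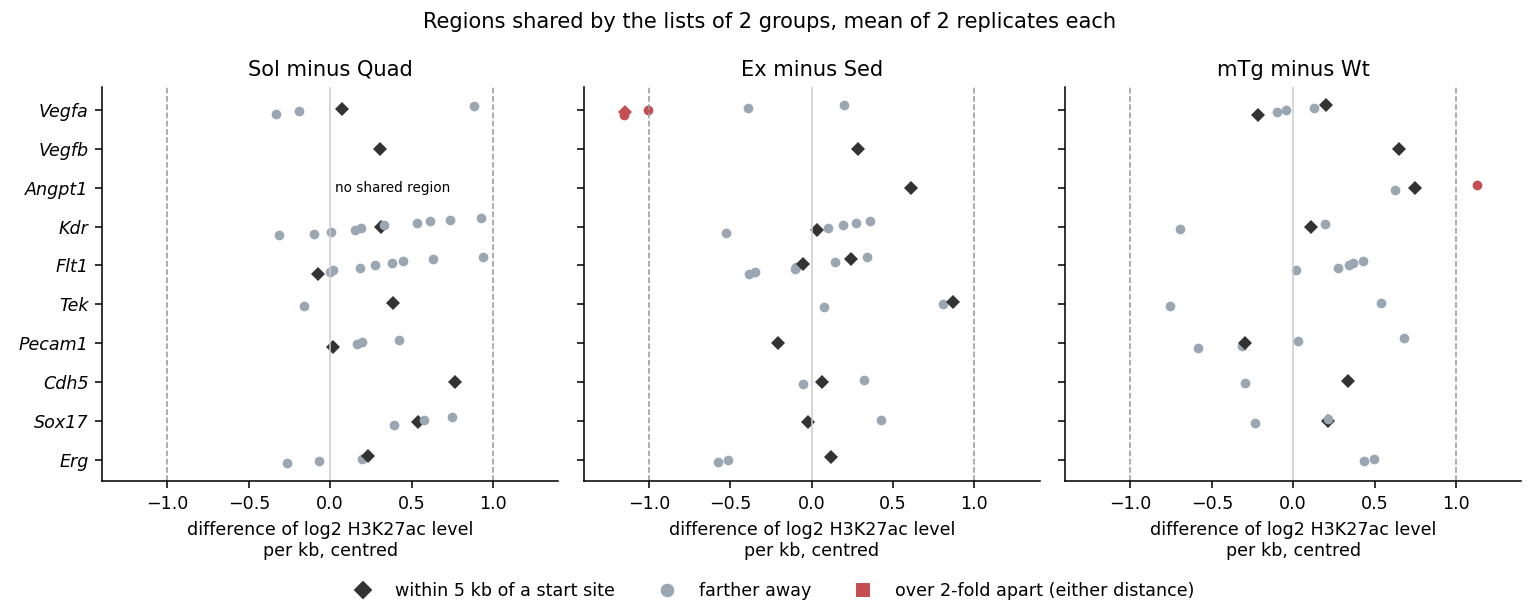
Difference of centred log2 H3K27ac level per kb (horizontal axis, means of 2 replicates) for each matched region of each gene (rows) between Sol and Quad, Ex and Sed, and mTg and Wt (panels), with dashed lines at 2-fold, diamonds for regions within 5 kb of a start site and red for regions called apart. The 3 red Vegfa points at -1.15, -1.15 and -1.01 lie in the exercise panel, and the red Angpt1 point at 1.13 lies in the transgene panel.

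The authors' differential lists put the 4 libraries of each comparison on a common scale. Exercise-modified regions (EMRs) comprised 382 hyperacetylated and 2280 hypoacetylated regions, and PGC1α-modified regions (PMRs) 1828 and 844. The lists were selected on these libraries, so a test within them is no independent evidence. It sets each difference against a replicate spread that limma pooled, in part or in full, over the list. With limma, 99.7% of the hyperacetylated EMRs, 99.7% of the hypoacetylated EMRs, 100% of the hyperacetylated PMRs and 100% of the hypoacetylated PMRs passed an adjusted p of 0.05 in their direction, and nothing is read from the members passing as well. The hyperacetylated EMRs and the hypoacetylated PMRs held 0 regions of the 10 genes, the hypoacetylated EMRs 2 and the hyperacetylated PMRs 6.

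Both member EMRs lost acetylation. The intergenic Vegfa region chr17:45909681-45912688, 114 kb downstream of the TSS, had log2 levels of 7.63 and 7.63 in Ex against 8.65 and 8.22 in Sed, lower by 1.74-fold (-0.80 ± 0.21 SE, limma adjusted p = 0.000527), close to the median of its list (-0.76). It contains the first printed sequence. An Erg region in an intron, chr16:95472723-95474142, had 4.83 and 4.72 in Ex against 5.56 and 5.12 in Sed (-0.56 ± 0.21 SE, limma adjusted p = 0.00976). Both SEs are equal although the replicate spreads differ, since limma pooled the spread over this list. Neither SE thus shows the region's own replicate spread. The Erg value lost its call without Ex replicate 1, Ex replicate 2 or Sed replicate 1, with limma adjusted p-values of 0.0508, 0.0994 and 0.116. Of the whole list, 81.6%, 52.2% and 86.9% kept their call in the same fits. Neither the Vegfa start site nor its region at 121.6 kb is in the list. Of 64 Sed peaks of the 10 genes 2 overlapped a hypoacetylated EMR, against 6.71% of all Sed peaks, and 0 of 58 Ex peaks overlapped a hyperacetylated EMR, against 1.1%.

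In the mTg comparison the differential regions belonged to Angpt1 and Vegfb. The 6 hyperacetylated PMRs had a median difference of 0.94, against 0.74 for their list. The 5 Angpt1 regions were 4 in the first intron, at 67.1, 70.6, 99.1 and 110.1 kb from the TSS, and 1 intergenic region 160.1 kb upstream. At chr15:42608528-42611131 (67.1 kb) the mTg libraries had 7.18 and 7.16 and the Wt libraries 6.04 and 5.90, a 2.31-fold difference (1.20 ± 0.12 SE, limma adjusted p = 9.32e-09). At chr15:42605324-42607473 (70.6 kb) they had 6.76 and 7.15 against 6.02 and 5.87 (1.01). The remaining 3 Angpt1 regions were higher in mTg by 0.87 (160.1 kb), 0.72 (99.1 kb) and 0.64 (110.1 kb), and in each the mTg replicates lay above the Wt replicates. At Vegfb, chr19:6986460-6988531, which spans the start site and the printed upstream sequence, had 9.07 and 8.78 in mTg against 7.80 and 7.94 in Wt, a 2.07-fold difference (1.05 ± 0.13 SE, limma adjusted p = 1.39e-07). Its level exceeded that of 99.6% of the regions in the list. The 6 calls remained when any 1 library was left out, as did those of 98.4% to 99.1% of the whole list, which was selected on these libraries.

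**Figure D5:**
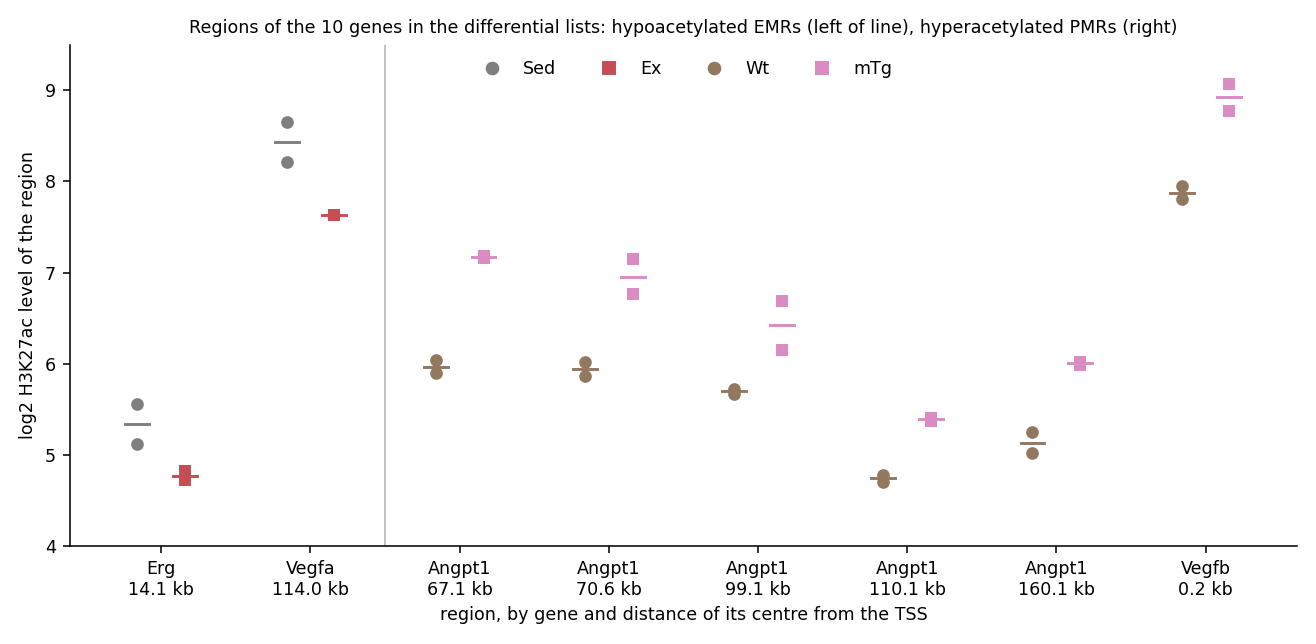
Log2 H3K27ac level of each region of the 10 genes in the differential lists (vertical axis), by gene and distance from the TSS (horizontal axis), with 1 marker per library and a bar for the mean of 2. Sed lies above Ex at Erg and Vegfa on the left, and mTg above Wt at the 5 Angpt1 regions and at Vegfb, 9.07 and 8.78 against 7.80 and 7.94, on the right.

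Matched regions of the separate mTg and Wt lists gave a wider view. Of 31 regions, 1 was apart, against 4.64% of all 17448, and 21 were higher in mTg (median 0.20, with 48.1% of all matched regions higher). The region apart was Angpt1 at 99.1 kb, the one holding the printed AP-1 match, with -0.58 and 0.35 in mTg against -1.30 and -1.20 in Wt (1.13). The Angpt1 start site had 0.75 and 0.66 against -0.20 and 0.12 (0.75), and Vegfb had 1.98 and 1.67 against 1.10 and 1.24 (0.65). The Vegfb region was 2072 bp wide in mTg and 1271 bp in Wt, and its whole level differed by 1.46. The Vegfa start site differed by 0.20. The receptor regions differed in both directions and none was apart per kb. Flt1 was higher in mTg in 5 of 5 regions (0.02 to 0.43, median 0.34) and Kdr in 2 of 3, and the Tek region at 87.7 kb was higher by 0.54. Over the whole region 5 of the 31 were apart, all higher in mTg: 3 of Flt1, 1 of Angpt1 and 1 of Vegfb. Of all matched regions 12.9% were apart on that scale. Tek at 7.4 kb had -1.4 and -0.97 against -0.14 and -0.72 (-0.76), and the Kdr region at its 3′ end, 44.5 kb from the TSS, had -1.03 and -0.84 against -0.08 and -0.39 (-0.70), although over the whole, wider region the Kdr difference was -0.05. The Pecam1 region at 39.4 kb differed by -0.58, with 0.65 and 0.54 against 1.28 and 1.07, although its whole level was 0.34 higher in a wider region, and of the 5 Pecam1 regions 2 were higher in mTg, up to 0.68 at 49.2 kb. Erg was higher by 0.50 and 0.43 in its 2 regions. The count of regions apart was 0 without mTg replicate 2, 3 without Wt replicate 1 and 2 without Wt replicate 2. Of all matched regions, 6.7%, 4.6% and 7.23% were then apart.

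Fibroblast marker regions were lower in mTg in 6 of 6 cases, with 5 of them over 2-fold (Col1a1, Col3a1, Dcn and Pdgfra, median -1.06), leukocyte marker regions were lower in 6 of 6 (median -0.31), mural cell regions had a median of -0.11 and fiber regions of 0.03. Their part in the Angpt1 and Vegfb differences was not tested. Of the 83 mTg peaks of the 10 genes 6 overlapped a hyperacetylated PMR, against 4.96% of all mTg peaks, and 0 of 87 Wt peaks overlapped a hypoacetylated PMR, against 1.72%.

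Sed and Wt, both quadriceps of sedentary wild-type mice, show how far separate sets of like muscle differ. None of 29 matched regions was apart, against 0.509% of all 20613, but 19 were higher in Sed, with a median of 0.30 and a range of -0.55 (Vegfb, 0.25 over the whole region) to 0.80 (Kdr start site, -0.33 and -0.23 in Sed against -1.08 and -1.07 in Wt). The Vegfa start site differed by -0.08. This median was as large as the 0.25 found between Sol and Quad.

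None of the matched H3K4me2 regions of the 10 genes was apart in any pair: 0 of 33 between Sol and Quad (background 1.84%, median 0.38), 0 of 37 between EDL and Quad (0.482%, median 0.007), 0 of 33 between Dia and Quad (1.55%, median 0.22), 0 of 21 between Ex and Sed (0.0971%, median 0.12), 0 of 16 between mTg and Wt (0.729%, median -0.13) and 0 of 19 between Sed and Wt (1.78%, median 0.04). The Vegfa start site had 0.46 and 0.50 in Ex against 0.31 and 0.40 in Sed, higher by 0.12, whereas its H3K27ac was lower by 1.15. The Vegfb start site had 1.15 and 0.90 in mTg against 0.69 and 0.70 in Wt (0.33), in the direction of its H3K27ac. The Angpt1 start site went opposite to its H3K27ac, with 0.05 and 0.22 in mTg against 0.59 and 0.54 in Wt (-0.43).

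A wider list of 56 angiogenic and endothelial genes was read in the same way. Between Sol and Quad, 3 of its 130 matched regions were apart, all higher in Sol (Emcn, an endothelial sialomucin, Epas1, a hypoxia-inducible factor, and Nrp2, a VEGF coreceptor), with a median of 0.26, where 3.59% of all matched regions were apart. Between Ex and Sed 1 of 121 was apart (Cxcl12, a chemokine, higher in Ex, median 0.19, background 2.92%), and between mTg and Wt 4 of 99, 1 higher and 3 lower in mTg (median -0.03, genes Cldn5, Fli1, Jag1 and Pdgfb, background 4.64%). Dia had 3 of 127 apart from Quad (median 0.08, background 4.2%), EDL 0 of 153 (0.03, background 0.652%), and Sed 0 of 110 from Wt (0.23, background 0.509%). These counts were near or below the background.

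The differential lists held 21 regions of the wider list, which had 249 H3K27ac peaks in Ex, 222 in Sed, 245 in mTg and 328 in Wt. Of all Ex peaks 1.1% overlapped a hyperacetylated EMR, and of all Sed peaks 6.71% a hypoacetylated one. For mTg and hyperacetylated PMRs the share was 4.96%, and for Wt and hypoacetylated PMRs 1.72%. The counts below are therefore not read as a result about this list. The hyperacetylated EMRs had 4, at Apln, the ligand of the apelin receptor (0.58 and 0.62), Klf4, a flow-responsive transcription factor (0.60), and Efnb2, a marker of arterial endothelium (0.61). The hypoacetylated EMRs had 1, at Nrp2 (-0.70). Among the 13 hyperacetylated PMRs the steepest was at Plvap, a component of the diaphragms of fenestrated endothelium, with 7.85 and 7.73 in mTg against 6.36 and 6.34 in Wt (1.44). The others were Fgf1 (1.13 and 0.60), Ets2 (1.09), Apln (1.09), the Efnb2 start site (0.95), Emcn (0.92), Epas1 (0.88 and 0.72), 3 regions of Klf4 (0.76, 0.50 and 0.40) and Hif1a (0.47). The hypoacetylated PMRs had Jag1 (-0.48), Cd34 (-0.48) and Thbs2, an inhibitor of angiogenesis (-0.45).

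Binding and accessibility data came from single libraries or pooled tags and have no replicate check. MED1, a subunit of the Mediator coactivator, had a peak at the Vegfa start site in all 4 muscles, with normalized tag signals of 18.8 in Dia, 9.61 in EDL, 23 in Quad and 13.5 in Sol. These ranked at percentile 98.9, 77.5, 99.1 and 94.3 of their lists of 2145, 834, 3593 and 4070 peaks. No other member start site had a MED1 peak on H3K27ac save that of Tek in Sol (5.85). EDL had 2 further peaks on H3K27ac, at the 3′ end of Vegfa (7.81), within the region that was higher in EDL than in Quad, and in an Erg intron (6.61). NFAT, a calcium-regulated transcription factor, had 3 peaks at the 10 genes in Quad and 40 in Sol, in lists of 485 and 39661 peaks. Of the 40, 6 overlapped Sol H3K27ac, a larger share than the 2.69% of all Sol NFAT peaks, and this difference was not tested. The 6 comprised 2 on the low-ranking Flt1 region upstream of its TSS, 1 on the Kdr region 44.7 kb upstream, 2 at Vegfa and 1 at Sox17. These Flt1 and Kdr regions were higher in Sol than Quad by 0.94 and 0.74. In control Quad, 48 of the 85 H3K27ac regions of the 10 genes (56.5%) held an ATAC peak, against 57.2% of all Quad regions.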

How the data were processed

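H3K27ac and H3K4me2 ChIP-seq of mouse muscle was analysed from the peak lists that the authors deposited. Per the submitters' processing notes, the authors aligned reads with Bowtie 1.2 and used HOMER, and their methods give mm10 as the build and peaks called over both replicates against input. The deposited level columns are log2 values per region and library, scaled to total tags and transformed with DESeq2 by the authors. The deposited lists also give, per region, a log2 fold change and an adjusted p-value of the authors' own comparison; these served only in thresholds on peaks and are not printed. The MED1, NFAT and ATAC columns deposited by the authors are a signal, the tags in each peak scaled to a common library total. BED files of pooled accessibility and footprints were not used.

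The 10 genes and all lists were chosen with earlier results of these data known. All 10 were named; of the wider list, genes with a differential region were named, and those called apart were named after their values were seen. Levels were divided by region width (log2 per kb), ranked within each library's list, and matched between lists at 50% reciprocal overlap. With 2 libraries per group an exact permutation test cannot go below p = 0.333. Differential lists were fitted whole with limma 3.58.1 in R 4.3.3, with Benjamini-Hochberg adjustment, without a replicate block, after the procedure was tested on simulated data. P-values set a difference against the spread between these libraries, which limma pooled in part or in full over each list. Other steps used python 3.11.15, numpy 2.4.6 and pandas 2.3.3. Promoter sequences came from RefSeq on GRCm38.p6. Alternatives were other overlaps and folds, whole-region levels, stricter peak thresholds, a replicate block and leaving out each library.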

Additional observations from a re-analysis of the deposited data

How the results depend on the processing

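The member counts in the hyperacetylated EMRs and hypoacetylated PMRs were 0 under every alternative run. At the authors' adjusted p under 0.001, 4 of the 6 hyperacetylated PMRs were left, without Angpt1 at 99.1 and 110.1 kb, and 0 of the 2 hypoacetylated EMRs; the other alternatives kept all 6. For the hypoacetylated EMRs, 1 to 2 were called when a library was left out. Of 52 refitted values for single named regions, 49 kept their call and 3, all of Erg, lost it; regions removed by the stricter p have no refitted value there. In the hyperacetylated EMRs 0 of 382 regions were called without Sed replicate 1.

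At 1.5-fold in place of 2-fold the matched regions apart were 8 (Sol and Quad), 2 (EDL and Quad), 3 (Dia and Quad), 6 (Ex and Sed), 7 (mTg and Wt) and 4 (Sed and Wt). Of all matched regions, 16.4%, 8.49%, 18.5%, 19.6%, 22.2% and 8.74% were then apart in the same pairs. With levels over the whole region they were 3, 5, 1, 3, 5 and 1, against 10.9%, 4.84%, 11.7%, 14.6%, 12.9% and 4.43% of all matched regions. At 80% overlap EDL and Quad gave 0 and Ex and Sed 1, against 0.324% and 2.03% of all matched regions. Leaving out a library gave 0 to 2, 0 to 1, 0 to 0, 1 to 6, 0 to 3 and 0 to 0. The shares of all matched regions were then 4.09% to 4.74%, 0.67% to 2.16% and 4.31% to 5.87% in the muscle pairs. They were 1.87% to 7.28% (Ex and Sed), 4.6% to 7.23% (mTg and Wt) and 0.645% to 2.2% (Sed and Wt). The cause was not tested. Of the 603 H3K27ac peaks 304 had an adjusted p under 0.001 (50.4%, against 53.5% of all peaks), and of the 458 H3K4me2 peaks 179 did (39.1%, against 55.9%).

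Same-numbered replicates correlated in their deviations at 0.144 and 0.106 (EMRs) and -0.0386 and -0.242 (PMRs), so the numbers do not pair the samples. The fit with a replicate block called 2 and 6 member regions in the hypoacetylated EMRs and hyperacetylated PMRs, and 100% of all regions there. With crossed numbers all 844 hypoacetylated PMRs were called, a list without member regions. Each group had 2 libraries and the peak lists were scaled separately, which limits how finely single regions can be compared.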
